A study of Mus musculus with 20 samples.

Results

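The comparison set 3 arrays of mouse regulatory T (Treg) cells kept 48 h with GGTI (GGTI_48h) against 3 arrays of DMSO-treated cells at 18 h (DMSO_18h), 6 of the 20 arrays in the series. It covered 21901 genes, each measured by 1 probe set, and asked, gene group by gene group, whether cells at the later time under GGTI had the levels of vehicle cells at the earlier time. All cells were CD4+YFP+CD44loCD62Lhi cells, called cTreg in the labels, taken by sorting from the spleen and pLN of Foxp3YFP-Cre mice of strain C57BL/6J, whose age the labels do not give. The DMSO_18h and DMSO_48h cells were stimulated with 10 ug/ml anti-CD3/28 antibodies and 200 U/ml IL-2 for the time in their name, and no stimulation is named for DMSO_0h. The GGTI_18h and GGTI_48h cells had 2 h of GGTI first and then the same stimulation with GGTI still present, and the FTI_18h and FTI_48h cells had the same schedule with FTI. No such first step is named for the DMSO groups. There were 2 arrays in GGTI_18h and 3 in every other group. The labels name neither the compounds nor their doses. Nothing says that the arrays of a group came from separate mice, so p-values measure the spread between these samples, which may be technical. GGTI_48h and DMSO_18h differ in both time and inhibitor, which cannot be told apart within this comparison, so the values of DMSO_48h, DMSO_0h and GGTI_18h stand beside the results. In sorted cell populations measured in bulk, fewer cells of a type and less RNA per cell cannot be told apart.

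Treg cells are CD4 T cells that depend on the transcription factor Foxp3 and restrain other lymphocytes. Stimulation through the T cell receptor first switches on immediate early genes, then genes of cell growth and ribosome production, and later those of DNA replication and mitosis, while genes of the resting state are switched off. GGTI and FTI are the usual abbreviations for inhibitors of the enzymes that attach geranylgeranyl and farnesyl groups, lipids made in the mevalonate pathway, to small GTPases such as those of the Rac and Ras families.

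Foxp3, Cd3e and Cd4 differed little between GGTI_48h and DMSO_18h, whereas Cd44, low at the sort, was higher in both groups than in DMSO_0h. Foxp3 had log2 values of 11.24, 11.09 and 11.06 in DMSO_18h and 11.08, 10.93 and 11.09 in GGTI_48h, which overlap, and the difference was −0.10 with a 95% interval from −0.26 to 0.07. Cd3e differed by 0.01 and Cd4 by −0.02. Of 12 T cell and Treg markers, Cd3d, Thy1 and Il2ra were called higher and Ctla4 and Tnfrsf18 lower. The calls of Cd3d and Ctla4 were lost without replicate 1 or 2 of GGTI_48h or of DMSO_18h, and with only the arrays compared, and that of Ctla4 also without replicate 3 of GGTI_48h and with centred arrays, with adjusted p up to 0.0885 and 0.207. The call of Tnfrsf18 was lost with only the arrays compared (adjusted p = 0.0601). Among markers of other cells, 1 of 14 for myeloid and dendritic cells rose (Itgam, by 1.03 from background), none of 8 for B cells rose, and of 9 for CD8 T and NK cells Cd8b1 rose by 0.57 and Nkg7 fell by 1.70. Mean levels of the lists ran from 5.67 to 5.85 in DMSO_18h and from 5.62 to 5.75 in GGTI_48h for myeloid markers, and from 5.49 to 5.80 and 5.27 to 5.48 for B cell markers. Among the defining markers, Lyz2, Csf1r, Itgax, Cd14, Ncr1 and Klrb1c were at or below background in both groups. Over the whole lists this held for 6 of 14 myeloid, 2 of 8 B cell and 6 of 9 CD8 T and NK markers. The remaining markers of these lists exceeded background in at least 1 of the groups. The haemoglobin genes Hba-a1 and Hba-a2, which are near-identical copies and cannot be counted as separate evidence, rose by 1.48 and 1.49, whereas their partners Hbb-bs and Hbb-bt both differed by −0.20 and were not called. The red cell list averaged 5.71 to 5.93 in DMSO_18h and 5.93 to 6.27 in GGTI_48h, and its part in the results was not tested. Among all 20 arrays, replicate 2 of DMSO_0h stood apart from its group in immediate early genes, where Nr4a1 was 9.41 against 11.09 and 10.87. Its value enters the spread estimated for those genes.

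Over all genes, 4931 of 21901 differed between GGTI_48h and DMSO_18h, which is 22.5%, at a Benjamini-Hochberg adjusted p under 0.05 in limma. Of these, 2446 (11.2%) were higher and 2485 (11.3%) lower, and with every array centred on its own median the split was 2722 higher and 1701 lower. A difference of at least 2-fold was called upwards for 537 genes (2.45%) and downwards for 164 (0.749%). For 16088 genes (73.5%), the 95% interval of the difference lay inside 1.5-fold in either direction, a measure used below for genes whose levels were close in both groups. The median difference over all genes was −0.08. For scale, 3371 genes (15.4%) differed between DMSO_48h and DMSO_18h, and 4750 (21.7%) between GGTI_48h and DMSO_48h. These comparisons share arrays, so their values are set side by side only.

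The root mean square log2 difference over genes between GGTI_48h and DMSO_18h arrays ran from 0.409 to 0.488 over 9 pairs with a median of 0.443. Against DMSO_48h it ran from 0.421 to 0.451 with a median of 0.434, and against DMSO_0h from 0.619 to 0.742. Arrays within GGTI_48h lay 0.210 to 0.223 apart, and within DMSO_18h 0.238 to 0.294 apart. The ranges against DMSO_18h and DMSO_48h overlap. The arrays nearest to GGTI_48h were those of GGTI_18h, from 0.324 to 0.407, and of FTI_48h, from 0.352 to 0.381.

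**Figure D1:**
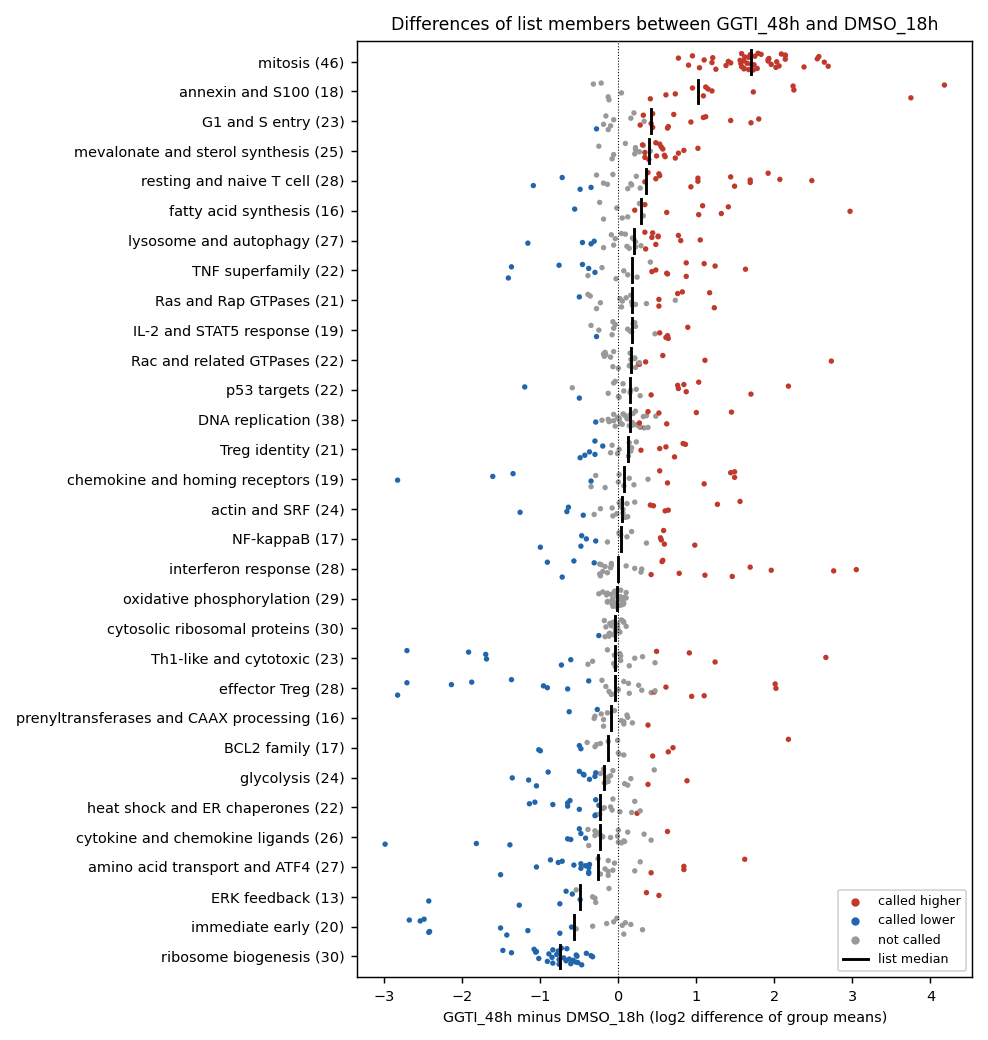
Log2 difference GGTI_48h minus DMSO_18h (horizontal axis) of each measured member of 31 gene lists (vertical axis, number of members in brackets), ordered by the list median, which is the black bar. Red points were called higher and blue points lower by limma over all genes, and grey points were not called. All 46 mitosis genes lie to the right of 0 and all 30 ribosome biogenesis genes to the left, while the 29 oxidative phosphorylation genes stay between −0.25 and 0.10.

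Genes of mitosis were higher in GGTI_48h in every case. All 46 members of the list were called higher against 11.2% of all genes, 43 of them at least 2-fold, with differences from 0.77 to 2.69 and a median of 1.70, and the arrays of the groups did not overlap for any member. The list's mean level on the DMSO_18h arrays was 7.65, 7.88 and 7.82, and on the GGTI_48h arrays 9.54, 9.55 and 9.44. It stood at 9.26, 9.29 and 9.27 in DMSO_48h, just under GGTI_48h, and at 6.00, 6.20 and 6.02 in DMSO_0h. Ccnb2 encodes cyclin B2, a partner of the mitotic kinase Cdk1. It was 8.25, 8.35 and 8.58 in DMSO_18h and 10.82, 10.8 and 10.71 in GGTI_48h, a difference of 2.38 ± 0.094 (SE, adjusted p = 1.67e-12, limma) or 5.19-fold. The phosphatase gene Cdc25b, whose product activates Cdk1, was 7.17, 6.82 and 7.2 in DMSO_18h and 9.85, 9.72 and 9.69 in GGTI_48h, 6.44-fold higher. Its DMSO_48h arrays, at 8.16, 8.12 and 8.1, lay between the groups, so Cdc25b was above all 3 DMSO groups (adjusted p = 1.41e-09). Nusap1, a spindle microtubule protein, rose by 2.57 ± 0.11 and Knl1, a kinetochore scaffold, by 1.93 ± 0.090. Cenpa, the centromeric histone, rose by 1.74 ± 0.080 and then differed from DMSO_48h by 0.14 (adjusted p = 0.273). Mki67, a general marker of cycling cells, rose by 1.21 ± 0.13, from 10.35 to 10.5 in DMSO_18h to 11.62 to 11.63 in GGTI_48h. In all, 8 mitosis genes were above all 3 DMSO groups, where 2.67% of all genes were. The list's mean absolute difference of GGTI_48h was 0.28 from DMSO_48h, 1.73 from DMSO_18h and 3.44 from DMSO_0h.

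The 250 bases before the annotated start of Ccnb2 are shown because Ccnb2 is among the mitosis genes with the smallest p and its window holds the most copies of the CCAAT box, the pentamer bound by the factor NF-Y, among the 5 mitosis genes named. The sequence is from RefSeq on GRCm38.p6, chr9:70421555-70421804, minus strand, read 5′ to 3′ in the direction of the gene, with CCAAT on either strand in capitals.
Ccnb2: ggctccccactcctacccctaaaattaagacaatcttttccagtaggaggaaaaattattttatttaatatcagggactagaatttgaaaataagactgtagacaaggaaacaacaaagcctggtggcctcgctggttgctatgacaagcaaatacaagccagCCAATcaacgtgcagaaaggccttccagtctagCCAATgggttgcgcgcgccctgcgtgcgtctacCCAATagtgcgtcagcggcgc
The 3 boxes start 87 to 21 bases before the gene's start. At least 1 CCAAT on either strand was present in this window for 26 of 39 mitosis genes found in the promoter table (66.7%), 20 of 31 replication genes (64.5%), 7 of 25 ribosome biogenesis genes (28.0%) and 10133 of 27025 genes overall (37.5%).

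DNA replication genes differed by a median of 0.15. Of 38 members, 7 (18.4%) were called higher, against 11.2% of all genes, and 1 was called lower. A 95% interval inside 1.5-fold was found for 27 (71.1%), near the 73.5% of all genes. The list averaged 9.34, 9.55 and 9.5 on the DMSO_18h arrays and 9.68, 9.7 and 9.6 on the GGTI_48h arrays, and 7.37 to 7.58 in DMSO_0h, from which all 38 had risen by 18 h in DMSO (19.0% of all genes were higher in that comparison). Mcm2, a subunit of the replicative helicase, was the member called lower, with 10.96, 11.03 and 11.01 in DMSO_18h and 10.79, 10.72 and 10.63 in GGTI_48h (−0.29 ± 0.076, adjusted p = 0.00984), a call lost without replicate 3 of GGTI_48h (adjusted p = 0.0517), with only the arrays compared (adjusted p = 0.0629) and with arrays centred on their median (adjusted p = 0.0557). Pola2, a subunit of DNA polymerase alpha, differed by −0.01 with an interval from −0.19 to 0.16. The members that rose included Top2a, the topoisomerase that separates chromosomes in mitosis, by 1.45 ± 0.13, and the ribonucleotide reductase genes Rrm2 and Rrm1, by 1.00 ± 0.12 and 0.52 ± 0.13. Gins3, a part of the helicase complex, rose by 0.62 ± 0.12. None of the 38 lay outside all 3 DMSO groups.

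Gins3 is shown as the replication gene with the smallest p whose 250 bases before the start hold both an E2F site and a CCAAT box. The E2F site was searched on both strands as TTTGGCGC or TTTCCCGC (RefSeq, GRCm38.p6, chr8:95633309-95633558, plus strand). The E2F match and the CCAAT boxes, on either strand, are in capitals.
Gins3: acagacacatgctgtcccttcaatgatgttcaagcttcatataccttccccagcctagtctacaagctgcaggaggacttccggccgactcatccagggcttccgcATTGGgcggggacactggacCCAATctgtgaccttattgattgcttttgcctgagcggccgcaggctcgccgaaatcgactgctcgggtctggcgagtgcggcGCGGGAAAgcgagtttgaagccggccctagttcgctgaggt
The E2F match starts 41 bases before the gene's start and the 2 CCAAT boxes start 144 and 124 bases before it. An E2F match was found for 6 of 31 replication genes (19.4%), 1 of 39 mitosis genes (2.56%), 3 of 25 ribosome biogenesis genes (12.0%) and 1.51% of all genes in the table.

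Genes of entry into the cycle were mostly higher. Of 23 members 14 were called higher and 1 lower, with a median of 0.42, and 6 were above all 3 DMSO groups. E2f2, a transcription factor of the cell cycle, was 8.25, 8.53 and 8.27 in DMSO_18h, 9.27, 9.06 and 9.02 in DMSO_48h and 10.16, 10.24 and 10.04 in GGTI_48h, so that GGTI_48h was the highest group (1.80 ± 0.094 over DMSO_18h, adjusted p = 5.04e-11). The repressive relatives E2f7 and E2f8 rose by 1.09 ± 0.11 and 1.12 ± 0.12. Ccnd3, cyclin D3, rose by 0.63 ± 0.073 and was above every DMSO array, whereas Ccnd2, cyclin D2, fell by 0.28 (named after its value was seen, as the member called lower). The inhibitors of cyclin-dependent kinases Cdkn2c and Cdkn1a rose by 1.44 ± 0.13 and 1.70 ± 0.21, and Cdkn1a at 10.29 to 10.52 stayed below its DMSO_48h values of 11.07 to 11.2. Cdk4, a kinase that pairs with the D cyclins, differed by −0.19 with an interval inside 1.5-fold and was not called. The call of Ccnd2 was lost without replicate 1 or 2 of GGTI_48h or replicate 3 of DMSO_18h, with only the arrays compared and with centred arrays, with adjusted p up to 0.0716.

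**Figure D2:**
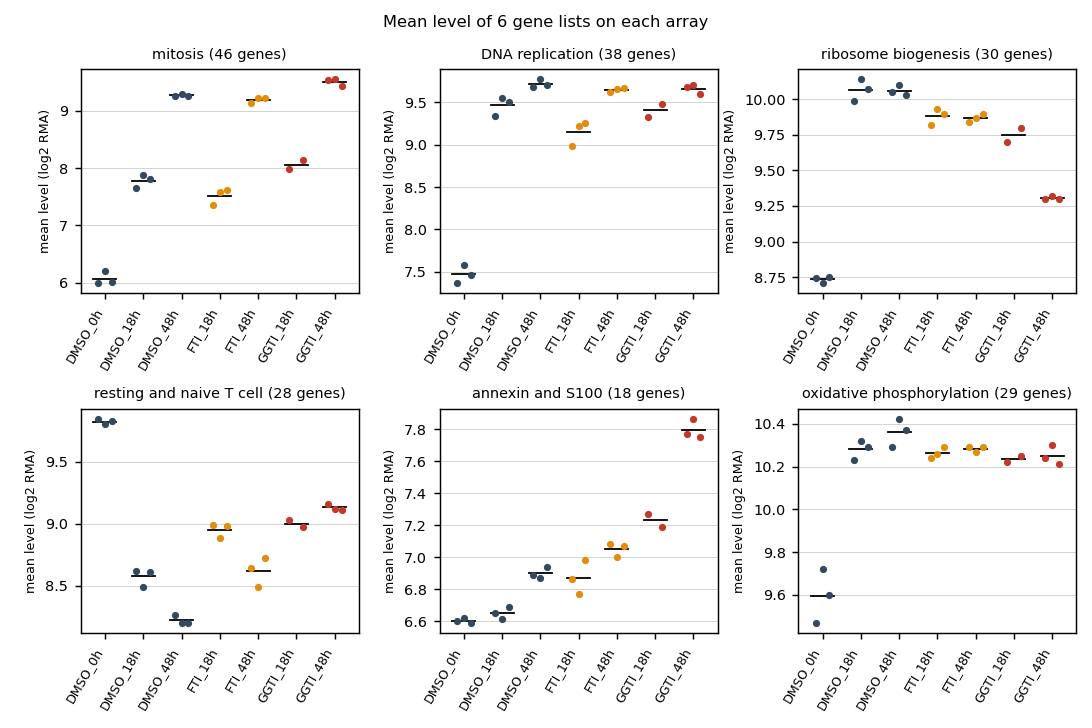
Mean log2 RMA level of 6 gene lists on each array (vertical axes, which do not start at 0), with groups along the horizontal axis, points for arrays and bars for group means. In GGTI_48h the mitosis list lies at 9.44 to 9.55, above DMSO_48h, and the ribosome biogenesis list at 9.30 to 9.32, between DMSO_0h and DMSO_18h.

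Ribosome biogenesis genes were lower in GGTI_48h throughout. All 30 were called lower, against 11.3% of all genes, with differences from −1.48 to −0.33 and a median of −0.75, 6 of them at least 2-fold. The list averaged 9.99, 10.14 and 10.07 in DMSO_18h and 9.3, 9.32 and 9.3 in GGTI_48h, and it stood at 10.03 to 10.10 in DMSO_48h and 8.71 to 8.75 in DMSO_0h. The level at 48 h under GGTI therefore fell between those of DMSO_0h and both later DMSO groups, and no member was outside all 3. Utp20, a processing factor for the small ribosomal subunit, was 9.29, 9.59 and 9.34 in DMSO_18h and 8.05, 7.97 and 7.76 in GGTI_48h (−1.48 ± 0.11, adjusted p = 4.81e-09), 2.79-fold lower. Srm, spermidine synthase, fell by 1.05 ± 0.083 and Nolc1, a nucleolar chaperone, by 1.02 ± 0.091. Polr1b, a subunit of RNA polymerase I, fell by 0.89 ± 0.078 and Nop16 by 0.85 ± 0.074. Npm1 and Nop56, abundant nucleolar proteins, were the 2 members with an interval inside 1.5-fold, and differed by −0.35 and −0.33. Both calls were lost without replicate 1 or 2 of either group, with only the arrays compared and with centred arrays, and that of Nop56 also without replicate 3 of GGTI_48h, with adjusted p up to 0.139 and 0.177. Leaving out single arrays of the groups compared left 27 to 29 members of the list called lower. In GGTI_18h the list averaged 9.70 and 9.80, and 2 members were lower than in DMSO_18h by the test, where 0.548% of all genes were. Myc, a regulator of these genes, was 11.5, 11.64 and 11.47 in DMSO_18h and 11.48, 11.42 and 11.53 in GGTI_48h, a difference of −0.06 with a wide interval from −0.58 to 0.47.

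Genes for the ribosomal proteins themselves differed little. All 30 cytosolic ribosomal protein genes had an interval inside 1.5-fold, and Rpl13 alone was called, lower by 0.25 (adjusted p = 0.0163). That call was lost without replicate 3 of GGTI_48h (adjusted p = 0.075), with only the arrays compared (adjusted p = 0.095) and with centred arrays (adjusted p = 0.0748). All 29 genes of oxidative phosphorylation, which encode the respiratory chain and ATP synthase, were likewise inside 1.5-fold and none was called, against 73.5% of all genes inside 1.5-fold. Ndufs3 of complex I was 11.31, 11.32 and 11.36 in DMSO_18h and 11.19, 11.22 and 11.14 in GGTI_48h, and Cox5a of complex IV differed by −0.08. The oxidative phosphorylation list averaged 9.47 to 9.72 in DMSO_0h, and 26 of its 29 members were higher in DMSO_18h than in DMSO_0h, whereas the ribosomal protein genes of GGTI_48h lay 0.08 from DMSO_0h on average.

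Glycolysis genes were more often lower than higher. Of 24 members 10 were lower and 2 higher in GGTI_48h than in DMSO_18h, with a median of −0.18, while the median of DMSO_48h minus DMSO_18h was 0.34. Pfkfb3, which makes an activator of glycolysis, was 8.13, 8.29 and 8.13 in DMSO_18h and 6.9, 6.81 and 6.75 in GGTI_48h (−1.36 ± 0.10, adjusted p = 5.91e-09), below all 3 DMSO groups. Aldolase A (Aldoa) fell by 1.05 ± 0.095, to 9.70 to 9.81 against 9.55 to 9.80 in DMSO_0h. Pgam1 and Pfkp, enzymes of the pathway, fell by 0.45 and 0.44. Hexokinase 1 (Hk1) rose by 0.88 ± 0.18 to the level of DMSO_48h. Gapdh differed by −0.18 and was not called.

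Amino acid supply genes were also more often lower. Of 27 genes of amino acid transport and the ATF4 response, 13 were lower and 4 higher. The subunits of a large neutral amino acid transporter, Slc7a5 and Slc3a2, fell by 0.87 ± 0.11 and 0.77 ± 0.085, and Slc3a2 was below all 3 DMSO groups. Asparagine synthetase (Asns) was 7.88, 8.07 and 8.47 in DMSO_18h and 6.2, 6.82 and 6.87 in GGTI_48h, a fall of 1.51 ± 0.18. Trib3, a pseudokinase also induced by ATF4, moved in the opposite direction, from 6.05 to 6.19 in DMSO_18h to 7.65 to 7.87 in GGTI_48h, above all 3 DMSO groups. Chaperones were lower for 11 of 22 members and higher for 1. The mitochondrial chaperonin genes Hspd1 and Hspe1 fell by 1.14 ± 0.11 and 0.65 ± 0.088, Hsph1 by 1.07 ± 0.11, and the ER chaperone gene Hspa5 by 0.65 ± 0.11. Only 7 of these chaperone calls were made without replicate 3 of GGTI_48h, without replicate 2 or replicate 3 of DMSO_18h, with arrays centred on their median, or with a fit to the compared arrays alone.

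**Figure D3:**
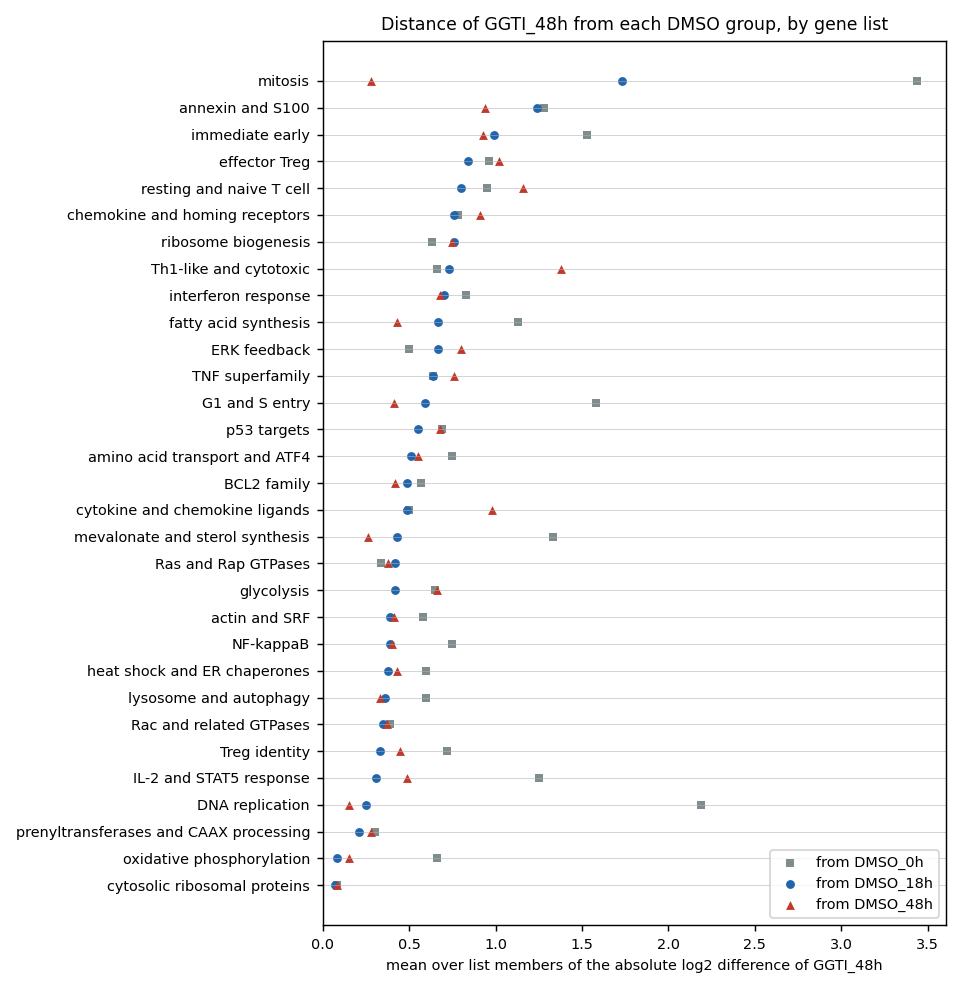
Mean absolute log2 difference of GGTI_48h from DMSO_0h (grey squares), DMSO_18h (blue circles) and DMSO_48h (red triangles) over the members of each of 31 gene lists (horizontal axis), ordered by the distance from DMSO_18h. DMSO_18h was the nearest DMSO group for 17 lists, DMSO_48h for 10, among them mitosis and DNA replication, and DMSO_0h for 4, among them ribosome biogenesis.

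By the mean absolute difference over members, DMSO_18h was the DMSO group nearest to GGTI_48h for 17 of the 31 lists, DMSO_48h for 10 and DMSO_0h for 4. These are orders of values without a test, and several are close, as for the TNF superfamily, which lay 0.64 from both DMSO_0h and DMSO_18h. Lists nearest to DMSO_0h were ERK feedback, Th1-like and cytotoxic genes, ribosome biogenesis, and Ras and Rap GTPases. Those nearest to DMSO_48h were immediate early genes, G1 and S entry, DNA replication, mitosis, the BCL2 family, sterol synthesis, fatty acid synthesis, annexins and S100 proteins, the interferon response, and lysosome and autophagy.

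Immediate early genes, which the T cell receptor induces within minutes, were lower in GGTI_48h. Of 20 members 10 were called lower and none higher, 8 at least 2-fold lower, with a median of −0.57, and 7 were below all 3 DMSO groups, where 0.74% of all genes were. The nuclear receptor Nr4a1 was 10.29, 10.46 and 10.46 in DMSO_18h, 9.64, 9.47 and 9.46 in DMSO_48h and 7.88, 8.01 and 7.71 in GGTI_48h. The fall from DMSO_18h was 2.54 ± 0.26 (adjusted p = 4.27e-07), 5.80-fold. Its relatives Nr4a2 and Nr4a3 fell by 2.68 ± 0.28 and 2.49 ± 0.24. The zinc finger factors Egr1 and Egr2 fell by 2.43 ± 0.25 and 2.42 ± 0.27, and Egr1 had 9.43, 9.57 and 9.68 in DMSO_18h against 7.49, 7.21 and 6.7 in GGTI_48h. All 5 were below every DMSO array, replicate 2 of DMSO_0h included. Fosl2, an AP-1 subunit, was also below every DMSO array, with −1.51 ± 0.18 against DMSO_18h. The AP-1 genes Junb and Jund differed by −0.15 and 0.09 and Ier5 by 0.05, all with intervals inside 1.5-fold. Outside the list, Npas4, an activity-induced factor, fell by 2.38 ± 0.10 to values at background, the level it also had in DMSO_0h.

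Genes that feed back on ERK signalling were lower for 6 of 13 members and higher for 2. Dusp4, a nuclear MAP kinase phosphatase, was 10.31, 10.52 and 10.48 in DMSO_18h and 9.13, 9.27 and 9.1 in GGTI_48h (−1.27 ± 0.13, adjusted p = 5.49e-07), and it was below all 3 DMSO groups. Dusp5 and Spry1 fell by 0.75 ± 0.15 and 0.67 ± 0.13, and Spred2 rose by 0.36. NF-kappaB genes split, with 5 higher and 5 lower of 17. Bcl3 rose by 0.98 ± 0.11, Birc3 by 0.59 ± 0.12 and Traf1 by 0.58 ± 0.091, while Rel, a subunit of the factor, fell by 0.47 ± 0.11 to the level of DMSO_48h. Nfkb1 differed by −0.14 and was not called.

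**Figure D4:**
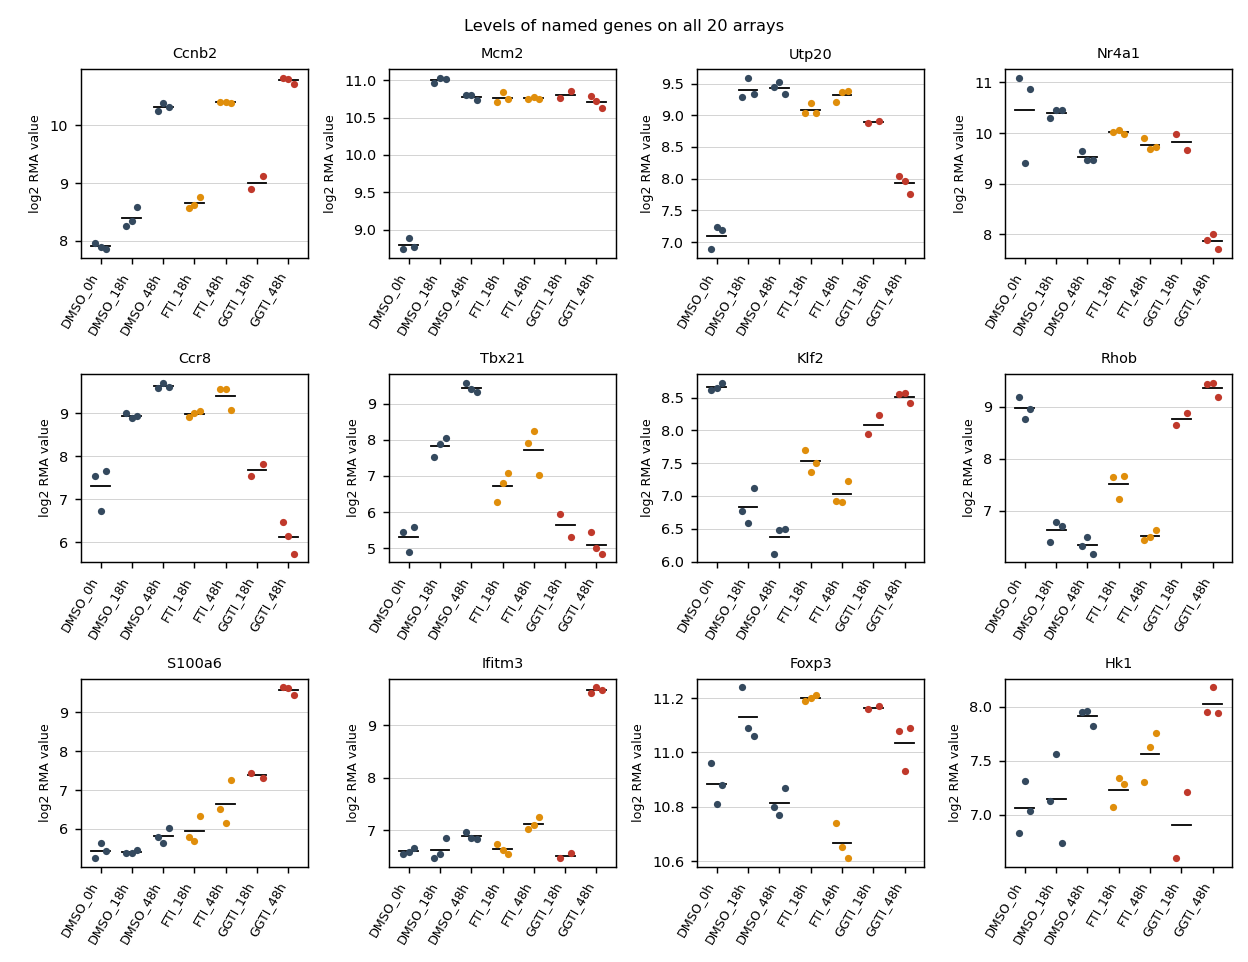
Log2 RMA values of 12 genes on all 20 arrays (vertical axes, each with its own range and not starting at 0), with groups along the horizontal axis, points for arrays and bars for group means. In GGTI_48h, Ccnb2 is near DMSO_48h, Mcm2 near both later DMSO groups, Klf2 near DMSO_0h, Rhob at or just above it, Utp20 between DMSO_0h and DMSO_18h, and Nr4a1, Ccr8, S100a6 and Ifitm3 outside all DMSO arrays.

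Genes of the resting and naive T cell state were higher in GGTI_48h for 15 of 28 members, 9 of them at least 2-fold, and lower for 4, with a median of 0.36, against a median of −0.21 for DMSO_48h minus DMSO_18h. The list averaged 8.49 to 8.62 in DMSO_18h, 9.11 to 9.16 in GGTI_48h and 9.80 to 9.84 in DMSO_0h, and it was also higher in GGTI_18h, at 8.97 and 9.03. Klf2, a factor that maintains quiescence and homing, was 6.77, 6.59 and 7.12 in DMSO_18h and 8.56, 8.57 and 8.42 in GGTI_48h (1.69 ± 0.14, adjusted p = 1.90e-08), next to 8.61 to 8.73 in DMSO_0h. Il7r, the receptor for IL-7, rose by 2.48 ± 0.15 (5.57-fold) to 9.84 to 9.99, a range that overlaps its DMSO_0h values of 9.58 to 9.86. Klf3 rose by 2.07 ± 0.14 and Tsc22d3 by 1.92 ± 0.14, both to levels below DMSO_0h. Id3, an inhibitor of E proteins, was 7.18, 7.69 and 7.59 in DMSO_18h and 9.22, 9.33 and 8.98 in GGTI_48h, and was above all 3 DMSO groups. Cd44, a marker of the sort, differed by −0.09 and was not called. Its mean was 7.22 in DMSO_0h, 8.45 in DMSO_18h and 8.37 in GGTI_48h, so both groups were above DMSO_0h. Tcf7, Foxo1 and Foxp1, factors of the naive state, differed by −0.07, 0.17 and −0.14 and were not called. The members called lower were Ccr7, by 0.35, and, named after their values were seen, Dusp2 by 1.09, Bach2 by 0.49 and Rgs2 by 0.72, the last to background. Dusp2, Bach2 and Rgs2 were below all 3 DMSO groups. The call of Ccr7 was lost without replicate 2 of GGTI_48h (adjusted p = 0.0587) or replicate 3 of DMSO_18h (adjusted p = 0.0518).

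Treg identity genes were called in both directions. Of 21 members 6 were called higher and 6 lower, 28.6% each way against 11.2% and 11.3% of all genes, none of them at least 2-fold. The differences ran from −0.49 to 0.86, and 15 members (71.4%) had an interval inside 1.5-fold, against 73.5% of all genes. Nrp1, a surface receptor of Treg cells, was 8.19, 7.85 and 8.04 in DMSO_18h and 8.96, 8.89 and 8.81 in GGTI_48h, with 8.51 to 8.97 in DMSO_0h. Nt5e, the ectoenzyme CD73, rose by 0.83 ± 0.11 and Capg, an actin-capping protein, by 0.72 ± 0.10. Il2ra, the IL-2 receptor alpha chain, rose by 0.53 ± 0.10, and Il2rb differed by 0.17 and was not called. Cd5, which dampens receptor signalling, fell by 0.43 ± 0.072, and Ctla4, an inhibitory receptor, differed by −0.30 (adjusted p = 0.0468, lost under the alternatives given above).

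Effector Treg genes moved in both directions. Of 28 members 6 were higher and 9 lower. Ccr8, a chemokine receptor of tissue and effector Treg cells, was 9.01, 8.88 and 8.93 in DMSO_18h and 6.47, 6.14 and 5.73 in GGTI_48h (−2.83 ± 0.20, adjusted p = 2.89e-09), 7.10-fold lower and below its DMSO_0h values of 6.72 to 7.65. The inhibitory receptors Pdcd1 (PD-1) and Tigit fell by 2.14 ± 0.11 and 1.88 ± 0.15 and were below all 3 DMSO groups. The costimulatory receptor Tnfrsf9 (4-1BB) fell by 1.37 ± 0.096 to 9.87 to 9.95, just above its DMSO_0h values of 9.22 to 9.65. Irf4, a factor of effector differentiation, was 9.99, 9.98 and 9.98 in DMSO_18h and 9.08, 9.03 and 9.11 in GGTI_48h, which do not overlap, a fall of 0.91 ± 0.28 (adjusted p = 0.0249). The standard error draws on all groups, and Irf4 on replicate 2 of DMSO_0h was 6.67 against 8.52 and 8.36. With only the arrays compared the adjusted p was 0.000106 and with array weights 0.00345. The call was lost with a trended and robust variance (adjusted p = 0.062) and without any single array of the groups compared but replicate 3 of GGTI_48h, with adjusted p up to 0.0687. Batf, an AP-1 factor that acts with Irf4, went the other way, from 9.70 to 9.76 in DMSO_18h to 10.59 to 10.73 in GGTI_48h, above all 3 DMSO groups. Icos and Tnfrsf1b differed by 0.00 and 0.07 and were not called.

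Th1-like and cytotoxic genes were called in both directions, 6 of 23 (26.1%) lower and 4 (17.4%) higher, against 11.3% and 11.2% of all genes. At background in both groups were 6 of the 23. Tbx21, the factor T-bet, was 7.51, 7.89 and 8.04 in DMSO_18h, 9.58, 9.4 and 9.32 in DMSO_48h and 5.44, 5.02 and 4.85 in GGTI_48h (−2.71 ± 0.27, adjusted p = 2.57e-07). In GGTI_48h and DMSO_0h it was at background, so the size is limited by background. Nkg7, a granule protein, fell by 1.70 ± 0.16, Slamf7 by 1.92 ± 0.16 to background, and the IL-12 receptor chain Il12rb1 by 1.69 ± 0.17. The members called higher, named after their values were seen where the rule did not hold them, were Il18r1, Runx3, Stat4 and Gzmc. Il18r1, a chain of the IL-18 receptor, was 7.09, 5.73 and 6.72 in DMSO_18h and 9.57, 8.49 and 9.46 in GGTI_48h, a rise of 2.66 ± 0.48 (adjusted p = 0.000317), with 7.98, 6.62 and 7.78 in DMSO_0h. Runx3, a factor of cytotoxic T cells, rose by 0.91 ± 0.16, Stat4, which signals for IL-12, by 0.49 ± 0.12, and Gzmc, a granzyme, by 1.24 ± 0.16 with both groups at background. Outside the list, Irf8, a factor of the interferon regulatory family, fell by 2.58 ± 0.15, from 9.58 to 9.94 in DMSO_18h to 7.11 to 7.32 in GGTI_48h. Of 26 cytokine and chemokine genes 8 were lower and 1 higher. The chemokines Ccl3 and Ccl4 were 7.64, 7.96 and 8.04 and 7.1, 7.49 and 7.45 in DMSO_18h, and they fell by 2.99 ± 0.22 and 1.82 ± 0.20, Ccl3 to background. In DMSO_48h they had risen to 10.06 to 10.53 and 9.66 to 9.73. Ltb, lymphotoxin beta, was the member that rose, by 0.63 ± 0.092, above all 3 DMSO groups. Lta, lymphotoxin alpha, differed by 0.12 and was not called.

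Receptors of homing showed both directions, with 6 of 19 higher and 4 lower. The lipid receptors S1pr4 and S1pr1, which guide exit from lymphoid organs, rose by 1.49 ± 0.11 and 1.44 ± 0.13, and Cxcr4 by 1.49 ± 0.17. S1pr1 was 8.48, 8.12 and 8.2 in DMSO_18h and 9.84, 9.73 and 9.54 in GGTI_48h, still under its DMSO_0h values of 10.36 to 10.76, whereas S1pr4 was above all 3 DMSO groups. Cxcr5, the receptor of follicular homing, fell by 1.61 ± 0.16 below all 3 DMSO groups, and Ccr6 and Cxcr3 differed by 0.00 and 0.14 and were not called. In the TNF superfamily 9 of 22 were higher and 6 lower. The death ligand Tnfsf10 (TRAIL) rose by 1.24 ± 0.15 and differed from DMSO_48h by −0.03, the death receptor Fas rose by 0.87 ± 0.10 above all 3 DMSO groups, and Tnfrsf26 rose by 1.63 ± 0.19.

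IL-2 and STAT5 response genes were called higher for 5 of 19 members (26.3%, against 11.2% of all genes) and lower for 1, and 12 (63.2%, against 73.5%) had an interval inside 1.5-fold. Osm, a cytokine induced by STAT5, rose by 0.89 ± 0.15, and Bcl6 rose by 0.61 ± 0.14. The list was not split into genes that STAT5 raises and genes that it lowers. In the BCL2 family 4 of 17 rose and 4 fell. The anti-apoptotic Bcl2 rose by 0.64 ± 0.11 and Bcl2a1b fell by 1.00 ± 0.11, while the pro-apoptotic Pmaip1 (Noxa) and Bcl2l11 (Bim) rose by 2.18 ± 0.17 and 0.70 ± 0.11. Pmaip1 was 5.72, 5.65 and 6.24 in DMSO_18h and 8.06, 8.08 and 8 in GGTI_48h, above all DMSO arrays. Mcl1 differed by −0.01 and Bax by 0.01. Bcl2a1b belongs to a family of near-identical copies, so its value may include those of its relatives. Of 22 p53 targets 8 (36.4%) were higher and 2 (9.09%) lower, with a median of 0.15. The median of DMSO_48h minus DMSO_18h was 0.46 and that of GGTI_48h minus DMSO_48h was −0.42. Sesn1 (0.76 ± 0.099) and Trp53inp1 (1.03 ± 0.16) were among the targets called higher. Mdm2 differed by 0.16 and Trp53 itself by −0.06, neither called.

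Annexin and S100 genes, most of which encode calcium-binding proteins of the membrane and cytoskeleton, were the list with the second highest median. Of 18 members 13 were higher and none lower, 9 at least 2-fold, with a median of 1.02 against −0.08 over all genes, and 8 were above all 3 DMSO groups. S100a6 was 5.37, 5.38 and 5.45 in DMSO_18h, 5.79, 5.64 and 6.03 in DMSO_48h, 7.44 and 7.31 in GGTI_18h and 9.65, 9.64 and 9.44 in GGTI_48h. It had the largest difference of all named genes (4.18 ± 0.20, adjusted p = 1.94e-11), 18.1-fold. Anxa2 rose by 3.75 ± 0.20 and its partner S100a10 by 1.15 ± 0.087. S100a4 rose by 2.24 ± 0.18, and galectin 1 (Lgals1), which is neither an annexin nor an S100 protein, by 1.73 ± 0.099. Anxa1 was at background in both groups.

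Interferon response genes divided within the family. Of 28 members 10 were higher, 6 at least 2-fold, and 4 lower, with a median of 0.00, and 7 were above all 3 DMSO groups. The antiviral membrane protein Ifitm3 was 6.47, 6.55 and 6.86 in DMSO_18h, 6.47 and 6.57 in GGTI_18h and 9.61, 9.72 and 9.67 in GGTI_48h, a rise of 3.05 ± 0.099 (adjusted p = 6.90e-14), 8.26-fold. Its neighbours in the family, Ifitm1 and Ifitm2, rose by 2.76 ± 0.16 and 1.96 ± 0.12. Gbp3, a GTPase of cell defence, rose by 1.11 ± 0.12. Irf9, a factor of the interferon response, differed by 0.21 and was not called. Members called lower, named after their values were seen, included Bst2 by 0.72, Usp18 by 0.57 and Rsad2 by 0.31, the last at background in both groups. The call of Rsad2 was lost without any single array of the groups compared but replicate 2 of GGTI_48h, with only the arrays compared, with centred arrays and with a trended and robust variance, and that of Usp18 without replicate 1 of GGTI_48h or replicate 2 or 3 of DMSO_18h, with adjusted p up to 0.193 and 0.0897.

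Genes of the pathways that GGTI bears on were next. Of 25 mevalonate and sterol synthesis genes 15 were higher and none lower, against 11.2% and 11.3% of all genes. The median was 0.39 in GGTI_48h minus DMSO_18h and 0.44 in GGTI_18h minus DMSO_18h. Without GGTI, the median of DMSO_48h minus DMSO_18h was 0.36, with 14 members higher and none lower. That of FTI_48h minus DMSO_18h was 0.39, with 11 higher and none lower. GGTI_48h minus DMSO_48h had a median of 0.02, with 5 members higher and 1 lower. Whether GGTI or time raised these genes was not tested. The list's mean absolute difference of GGTI_48h was 0.12 from GGTI_18h, 0.26 from DMSO_48h and 0.43 from DMSO_18h. Mvd, an enzyme of the mevalonate pathway, was 7.84, 8.16 and 8.48 in DMSO_18h and 9.19, 9.15 and 9.21 in GGTI_48h (1.02 ± 0.14, adjusted p = 1.66e-05), above all 3 DMSO groups. Fdft1, squalene synthase, rose by 0.49 ± 0.073, and Ggps1, which makes geranylgeranyl diphosphate, differed by −0.06 and was not called. Hmgcs1 rose by 0.77 ± 0.16 and is shown because it was the only one of 17 sterol genes in the promoter table with a sterol regulatory element, searched on both strands as TCACNCCAC, within the 250 bases before its start (RefSeq, GRCm38.p6, chr13:119690101-119690350, plus strand). The element and the CCAAT boxes, on either strand, are in capitals.
Hmgcs1: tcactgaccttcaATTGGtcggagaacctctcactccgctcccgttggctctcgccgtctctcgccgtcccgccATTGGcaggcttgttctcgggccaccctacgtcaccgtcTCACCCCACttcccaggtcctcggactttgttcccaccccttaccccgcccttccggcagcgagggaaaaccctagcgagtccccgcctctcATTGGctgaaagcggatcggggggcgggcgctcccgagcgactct
The element starts 137 bases before the gene's start and the 3 CCAAT boxes start between 237 and 45 bases before it. The element was found for 5.88% of the sterol genes and 1.22% of all genes in the table, and CCAAT for 16 of the 17 (94.1%).

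Fatty acid synthesis genes were higher for 8 of 16 members and lower for 1. Fads2, a desaturase, was 7.04, 7.62 and 7.18 in DMSO_18h and 10.04, 10.36 and 10.35 in GGTI_48h, a rise of 2.97 ± 0.24 (adjusted p = 1.60e-08), with 9.15, 10.2 and 9.21 in DMSO_48h. The stearoyl-CoA desaturases Scd1 and Scd2 rose by 1.41 ± 0.21 and 1.08 ± 0.10 and stayed below DMSO_48h. Acly, which supplies acetyl-CoA, differed by 0.05 and was not called.

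Among the GTPases, Rhob, an endosomal small GTPase, had the largest difference in its list. It was 6.41, 6.79 and 6.71 in DMSO_18h, 6.33, 6.5 and 6.18 in DMSO_48h, 8.65 and 8.88 in GGTI_18h and 9.44, 9.46 and 9.19 in GGTI_48h, a rise of 2.73 ± 0.14 (adjusted p = 3.97e-11), with 8.77 to 9.18 in DMSO_0h. Rhoc rose by 1.11 ± 0.17, Rhoa by 0.35 ± 0.078 and Rac2 by 0.27 ± 0.070, and Rac1 differed by 0.15 and was not called. The call of Rac2 was lost with only the arrays compared (adjusted p = 0.0682). In the list of Rac and related GTPases 6 of 22 were higher and none lower. Of 21 Ras and Rap genes 6 were higher and 1 lower, and Rras (1.17 ± 0.10) and Rras2 (0.82 ± 0.089) were above all 3 DMSO groups. The prenyltransferase genes Pggt1b, Fnta and Fntb differed by 0.11, 0.18 and 0.07 and were not called, and Rabggtb, a subunit of the Rab enzyme, fell by 0.63 ± 0.11. Among 24 actin and SRF genes 6 were higher and 4 lower. Vim, vimentin, rose by 1.56 ± 0.12, Tmsb4x by 1.27 ± 0.10 and Mrtfa by 0.64 ± 0.10, while Srf fell by 0.64 ± 0.075 and Cnn3, calponin 3, by 1.26 ± 0.17. Actb differed by 0.12 and was not called. Lysosome and autophagy genes were higher for 10 of 27 and lower for 4, among them Gaa, a lysosomal hydrolase, at −1.16 ± 0.14.

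Genes outside the lists were also among those with the largest rises. Car5b, a mitochondrial carbonic anhydrase, was 6.44, 6.72 and 6.49 in DMSO_18h and 10.65, 10.78 and 10.61 in GGTI_48h, 17.5-fold higher. Aqp3, a water and glycerol channel, was 6.5, 6.44 and 6.61 against 10.56, 10.56 and 10.28, 15.5-fold higher. Cacna1c, a calcium channel subunit, rose by 3.30 ± 0.095 and Hepacam2 by 3.16 ± 0.30. Car5b, Aqp3, Cacna1c and Hepacam2 were above every DMSO array. Cd55, a complement regulator, rose by 3.71 ± 0.26 from background in DMSO_18h to 8.24 to 8.57, above its DMSO_0h values of 7.38 to 8.01, which the test of all 3 DMSO groups did not call. Cdkn3, a phosphatase of the cell cycle, rose by 3.29 ± 0.18. Tead1, a factor of the Hippo pathway, rose by 3.16 ± 0.13 from background to 7.05 to 7.18 and differed from DMSO_48h by −0.10. Myo6, Fam20a and Ms4a6d were also among the genes farthest above all DMSO groups, with rises of 2.66 ± 0.13, 2.79 ± 0.15 and 2.67 ± 0.17 over DMSO_18h, the last 2 from background there. Farthest below all DMSO groups beside the genes described were Rgs16, a regulator of G protein signalling, at −2.17 ± 0.18 and at background in GGTI_48h, Penk at −1.90 ± 0.22 and Mapkbp1 at −1.33 ± 0.13.

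Genes were also split by differences measured on arrays outside the comparison. Among all genes, 11.2% were called higher and 11.3% lower in GGTI_48h than in DMSO_18h. Of 1907 genes (8.71% of all) at least 2-fold higher in DMSO_48h than in DMSO_0h, 466 (24.4%) were higher and 555 (29.1%) lower in GGTI_48h than in DMSO_18h. Their median was −0.05. Of 753 genes (3.44%) at least 2-fold lower in DMSO_48h than in DMSO_0h, 276 (36.7%) were higher and 53 (7.04%) lower, with a median of 0.21. Genes at least 2-fold higher in FTI_48h than in FTI_18h numbered 266 (1.21%), of which 214 (80.5%) were higher and 14 (5.26%) lower in GGTI_48h, with a median of 1.21. Of the 12 genes (0.0548%) at least 2-fold lower in FTI_48h than in FTI_18h, 7 (58.3%) were higher and 1 (8.33%) lower. Without replicate 3 of DMSO_18h, 2 of the 12 were called lower.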

How the data were processed

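Mouse Affymetrix arrays of sorted Treg cells were normalized with RMA in Affymetrix Expression Console 1.1, per the submitters' processing notes, and the deposited log2 values were used. RMA sets all arrays to 1 distribution and understates differences of dim genes. Of 28846 probe sets, 22206 measure genes. Those with 1 symbol were kept, with symbols updated through accessions for 896, and each of 21901 symbols was represented by the probe set of highest average across the 20 arrays. The number of arrays limits the precision.

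limma 3.58.1 in R 4.3.3 was fitted to all 20 arrays with a mean for each of 7 groups (13 residual and 6.08 prior degrees of freedom, median SD 0.155), with 2-sided tests and Benjamini-Hochberg adjustment over all genes at 0.05. It was tested on simulated data. Values after ± are standard errors of log2 differences. A gene lay outside all 3 DMSO groups when the largest of its 3 p-values passed and all differences had 1 sign. A gene was at background in a group where its mean did not exceed the average of the negative-control medians of that group's arrays. No 2 arrays were copies, as every pair differed by at least 0.149 per gene on average.

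The comparison, its 36 gene lists (31 and 5 of cell type markers) and the rule for named genes were chosen with earlier results of these data known. Named are the 10 largest and 10 smallest differences of each test whose arrays did not overlap, up to 5 list members with the smallest p and up to 3 with the narrowest interval inside 1.5-fold, together with a fixed set and the defining markers. Gene models without a name, pseudogenes, small RNAs and antigen receptor segments were not named. Hmgcs1 and some of the members called in counts of 5 or fewer were added after their values were seen where the rule did not hold them. Other members in such counts are not named. Some genes that the rule holds are not reported here.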

Additional observations from a re-analysis of the deposited data

How the results depend on the processing

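The number of genes called in GGTI_48h minus DMSO_18h was 4016 with only the arrays compared, 4423 with arrays centred on their median, 5019 with a filter on dim probe sets, 5201 with a trended and robust variance, 5202 with array weights and 4930 with probe sets averaged, against 4931. Leaving out each array of both groups gave 3708 to 4727, lowest without replicate 2 of GGTI_48h. The 746 genes outside all 3 DMSO groups became 606, 697, 833, 880, 856 and 754 under the same alternatives, and 540 to 789 with single arrays of these 4 groups left out. Chaperone genes called lower fell from 11 to 7 with only the arrays compared and with centred arrays, and ran from 7 to 11 with single arrays left out. Genes at least 2-fold lower in DMSO_48h than in DMSO_0h that were called lower here numbered 53, 31 with centred arrays and 37 to 65 with single arrays left out. Of the 12 genes lower in FTI_48h than in FTI_18h, 1 was called lower here and 2 with only the arrays compared, a trended and robust variance, or array weights, and 1 to 2 with single arrays left out. Of the named genes that were not called, 10 were called in at least 1 of 12 alternatives. With a filter on dim probe sets these included Cdk4, Gapdh and Il2rb (limma adjusted p = 0.0418, 0.0315 and 0.0335). The causes were not tested. No paired analysis was possible because the labels give no replicate numbers that link arrays across groups. Dim genes limit what can be seen, since differences that end at background are understated.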
